A study of Rattus norvegicus with 46 samples.

Results

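The killer lectin-like receptors are a family of C-type lectin-like surface proteins that natural killer (NK) cells, and some T cells, use to read the state of other cells. Here the family was taken as every gene whose name begins with Klr or Ly49 and whose rounded count was 5 or more in at least 3 libraries, which gave 30 genes of 31 with such names and of 30045 genes in the tables. Klrh1 was the gene left out, with 0 libraries at 5 counts and a highest count of 2. Of the 30 genes, 16 were Ly49 receptors (named Klra or Ly49), 4 were NKR-P1 receptors (Klrb), 5 belonged to the CD94 and NKG2 group (Klrc1, Klrc2, Klrc3, Klrd1 and Klrk1), 3 were Klre1, Klri1 and Klri2, and 2 were Klrg1 and Klrg2. Klra5 stood on 2 identifiers, Klra5 and Klra5-2, so the 30 genes carried 29 names. The members just inside the rule were Ly49s4, with 3 libraries at 5 counts or more, and Ly49i2, with 4.

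RNA was sequenced from lung and whole blood of male rats of the inbred strain Fischer 344, described by the submitters as healthy and, in the title of the series, as aged; the labels used here give no age. For 5 days, 6 hours daily, the rats inhaled either filtered air or Min-U-Sil 5, a fine quartz dust made of crystalline silica, in whole-body chambers at a dust level of 15 mg/m3. Tissue was collected 1 day or 6 months afterwards, so that each group is a tissue, a time and a treatment. The labels name no transgene or deletion in any group. Blood RNA was depleted of globin messages and lung RNA was not. There were 46 libraries in 8 groups, each time and tissue in a count table of its own, so in a comparison across time the time and the table cannot be told apart.

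Members of this family work in antagonism. Inhibitory receptors carry a cytoplasmic motif that recruits phosphatases when they bind their ligands. Many activating receptors have a short tail and signal through the adaptors Tyrobp (DAP12) or Hcst (DAP10). Ly49 receptors bind class I molecules directly, Klrd1 (CD94) pairs with Klrc proteins, Klrk1 (NKG2D) binds stress-induced ligands, NKR-P1 receptors bind Clec2 proteins, Klre1 pairs with Klri1 to form an inhibitory and with Klri2 to form an activating receptor, and Klrg1 is an inhibitory receptor for cadherins. A given NK cell carries only some of the Ly49 and Klrc receptors, so cells descended from 1 cell share a receptor set. Fischer 344 rats are also known for a leukaemia of large granular lymphocytes that arises with age; the labels name no disease in any rat, and whether any of these rats had it was not tested.

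Most of the family lies in 1 stretch of chromosome 4, the NK gene complex. In the RefSeq gene table all 29 names were found on 1 chromosome, and 26 protein-coding members lay within a run of 59 protein-coding genes. Klri1 and Klri2 are direct neighbours there, and 8 protein-coding genes separate Klrb1b from Klrb1c. These 4 genes are shown because, in the air lungs at 6 months described below, each pair moved in opposite directions: Klri1 and Klrb1c were higher, and Klri2 and Klrb1b lower, than at 1 day. Reads of Klrb1b were divided with Klrb1a, so its course is uncertain. The 250 bases before each start site are given 5′ to 3′ on the gene's own strand, from RefSeq's GRCr8 assembly of the rat genome, which is not the build of the count tables. Capitals mark matches to the motifs searched.
Klri1 (chr4:164904869-164905118, minus strand): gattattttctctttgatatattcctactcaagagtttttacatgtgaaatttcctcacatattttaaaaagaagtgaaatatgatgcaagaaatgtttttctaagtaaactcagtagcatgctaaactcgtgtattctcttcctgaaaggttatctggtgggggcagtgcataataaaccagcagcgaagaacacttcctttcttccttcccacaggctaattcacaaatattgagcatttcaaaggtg
Klri2 (chr4:164947505-164947754, minus strand): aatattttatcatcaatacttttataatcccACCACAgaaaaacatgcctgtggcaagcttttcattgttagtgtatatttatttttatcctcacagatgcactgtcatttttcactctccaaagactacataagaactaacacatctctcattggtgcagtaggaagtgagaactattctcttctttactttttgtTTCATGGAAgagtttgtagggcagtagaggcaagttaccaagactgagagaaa
Klrb1b (chr4:163647630-163647879, minus strand): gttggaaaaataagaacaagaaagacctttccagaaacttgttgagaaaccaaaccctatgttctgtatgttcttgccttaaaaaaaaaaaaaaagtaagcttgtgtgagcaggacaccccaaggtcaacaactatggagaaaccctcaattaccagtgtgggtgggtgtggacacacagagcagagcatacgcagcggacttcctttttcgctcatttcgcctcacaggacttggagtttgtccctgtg
Klrb1c (chr4:164067999-164068248, plus strand): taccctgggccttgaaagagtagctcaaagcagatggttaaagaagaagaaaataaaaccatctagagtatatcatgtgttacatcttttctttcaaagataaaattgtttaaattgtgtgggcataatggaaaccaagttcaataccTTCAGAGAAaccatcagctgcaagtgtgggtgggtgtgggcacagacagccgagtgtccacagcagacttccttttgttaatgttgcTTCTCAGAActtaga
The upstream sequences of the neighbours Klri1 and Klri2 were identical at 142 of 310 aligned positions (45.8%), and those of Klrb1b and Klrb1c at 59.3%. For scale, the unpaired Klri1 and Klrb1b were identical at 49.5%. Of the 29 names, 25 had such a sequence in the table. A RUNX motif (TGTGGT, either strand) was present in 6 of the 25, Klrc1, Klrc2, Klri2, Klrk1, Ly49i2 and Ly49i4, and in 14.5% of all 33469 promoters of the table. A STAT motif (TTCNNNGAA) was present in 4, Klrb1c, Klrc3, Klre1 and Klri2, and in 7.67% of all promoters. A T-box motif (TCACACC) was present in 0 of the 25 and in 3.22% of all promoters. The motifs do not overlap one another in the sequences shown, and a match describes the letters only.

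The genes of this family are close copies, so many reads fit more than 1 of them and were divided by the authors' quantifier. The estimated count was more than 0.01 away from a whole number in 97.8% of the libraries for Ly49si3, in 95.7% for Ly49si1, in 93.5% for Klrb1a and Klrb1b, in 87.0% for Klrc3, in 78.3% for Klra5-2 and Ly49si2, in 71.7% for Klrc1 and Klra5, in 67.4% for Klrc2, in 56.5% for Ly49i7 and in 47.8% for Klra2. For these 12 genes the split between copies is uncertain. The fractions of Klrb1a and Klrb1b complemented each other, as in air lung 02 at 1 day (counts of 329.55 and 37.451). Klrb1b had the smaller count in every lung library, so its level there depends on that split. The estimated count was that far away in 2.17% to 17.4% of libraries for Klrg1, Ly49s4, Ly49s5, Ly49s6, Ly49i2, Ly49i4 and Ly49i5. Klrk1, Klre1, Klrb1c, Klrg2 and Ly49i3 were never more than 0.002 away, and Klra1, Klra22, Klrb1, Klrd1, Klri1 and Klri2 were whole in every library.

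The total count was 13.4 M to 24.6 M in lung libraries and 10.6 M to 17.5 M in blood libraries. Levels are given as CPM, counts scaled to library size, in which a count of 3 is worth 0.122 to 0.224 in lung and 0.171 to 0.282 in blood; levels at or under that floor are counting noise, and the floor covers counting error only. In lung, 5 pairs of libraries, named by the numbers in their titles as 02-07, 04-08, 19-24, 20-25 and 30-31, differed in 7.65% to 9.71% of genes with whole counts, against 21.2% to 73.2% for 46 further pairs from the same lung groups. Each near-identical pair was averaged and counted as 1 library. The tests therefore rest on 4 (air) and 6 (silica) lungs from 1 day, on 2 (air) and 5 (silica) lungs from 6 months, and on 6 blood libraries in each group. Nothing in the labels ties each sample to an animal of its own, so p-values refer to the spread among these libraries, which may be technical. The lung marker Sftpc was at 4978 CPM or more in every lung library and at 0.188 CPM or less in every blood library. Both air lungs at 6 months, the silica lung 30-31 and the blood libraries 25 (6 months, air) and 11 (1 day, silica) stood apart in this family. Results that rest on them are given with and without them, 1 library at a time, as counts of genes or as effect sizes.

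**Figure D1:**
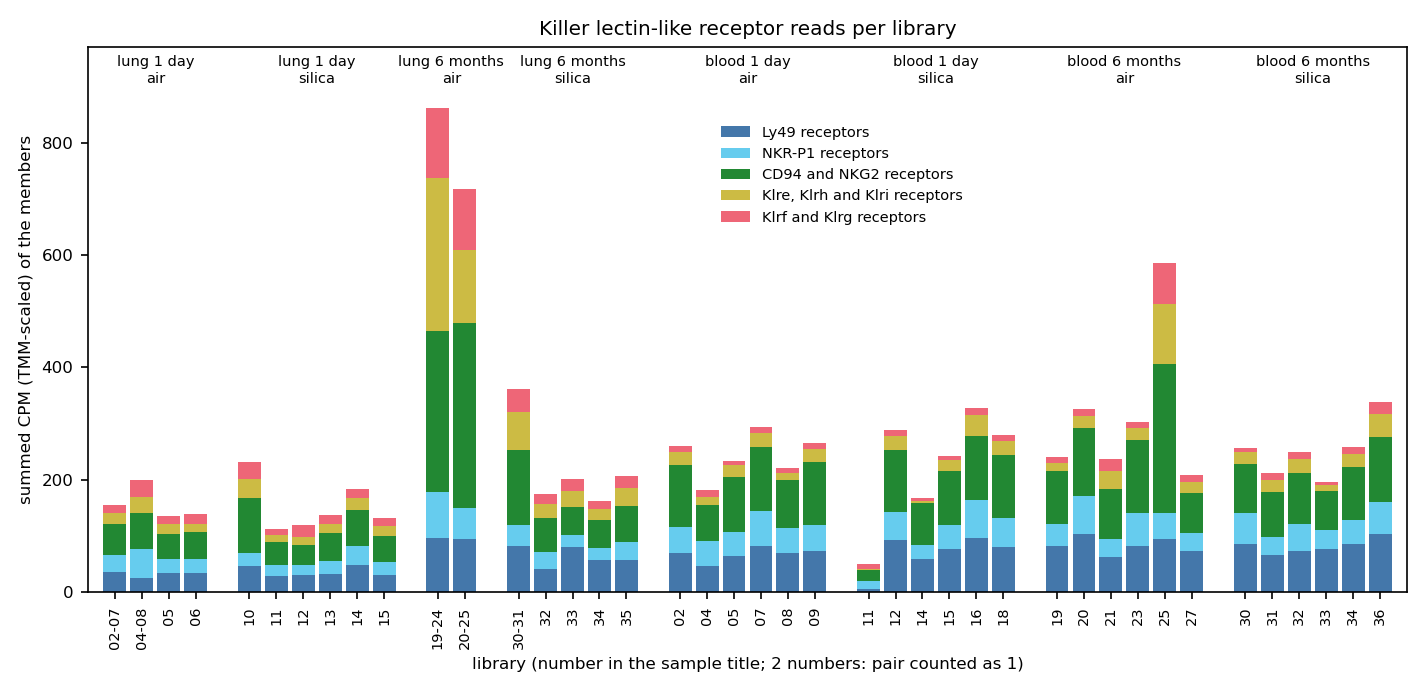
Summed CPM of the 30 receptors per library, stacked by receptor class, with libraries grouped by tissue, time and treatment; each bar is 1 library or 1 pair counted as 1. Both air lungs at 6 months (717 and 861 CPM) stand above all other lung libraries (112 to 362 CPM), and blood library 25 (585 CPM, or 1011 by total counts alone) above all other blood libraries.

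In lung, the family as a whole was highest in air-exposed rats at 6 months. Summed over the 30 members, the level was 157 ± 29.1 CPM (SD, n = 4) in air lungs at 1 day, 153 ± 46 (n = 6) in silica lungs at 1 day, 717 and 861 in the 2 air lungs at 6 months, and 221 ± 80.8 (n = 5) in silica lungs at 6 months. Neither late air lung overlapped any other lung library. The CD94 and NKG2 group held 286 and 330 CPM there, against 35.4 to 133 in the other lungs, and the Ly49 group 94.3 and 96.9, against 25.3 to 81.6.

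The first comparison asked how the receptors of air-exposed lungs differed between 6 months and 1 day. Of 26 members tested, 12 were higher and 3 lower at 6 months, when 22.5% of all 16568 genes tested were higher and 19.1% lower; the median member changed by 1.88 on the log2 scale and the median gene by -0.01. More messages in a whole lung may come from more cells that carry the receptor or from more message per cell, and in bulk RNA these cannot be told apart. The late air lungs number 2, and they also serve as controls for silica at 6 months below.

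Among the receptors that pair with CD94 or signal through Hcst, Klrk1 (NKG2D) was at 22.8, 26.0, 18.3 and 17.7 CPM in the 4 air lungs at 1 day and at 149 and 172 CPM in the 2 at 6 months. The groups did not overlap, and the log2 fold change was 2.92 (SE 0.40, adjusted p = 4.98e-05). Klrd1 (CD94) stood at 20.7, 24.8, 16.1 and 16.9 CPM at 1 day and at 77.7 and 70.3 CPM at 6 months, a change of 1.91 (SE 0.35, adjusted p = 0.000484). Klrc3, a CD94 partner, rose by 2.41 (SE 0.33) from 7.24 to 9.38 CPM to 41.0 and 47.0 CPM, and Klrc2 rose by 3.12 (SE 0.67). Klrc1 (NKG2A), the inhibitory partner of CD94, split the late air lungs, with 0.896 CPM in library 19-24 and 27.3 CPM in 20-25 around 1.40 to 3.61 CPM at 1 day, and did not pass the test (2.73, SE 1.11, adjusted p = 0.0612).

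Klre1, the common chain of the Klri receptors, was at 6.70, 7.46, 6.27 and 4.97 CPM at 1 day and at 106 and 78.3 CPM at 6 months (log2 change 3.85, SE 0.57, adjusted p = 0.000103). Its inhibitory partner Klri1 was at 6.82, 20.9, 7.68 and 5.70 CPM at 1 day and at 167 and 51.8 CPM at 6 months (3.41, SE 0.58). Its activating partner Klri2 was at 6.08, 0.443, 4.36 and 4.18 CPM at 1 day and at 0.568 and 0.210 CPM at 6 months, a change of -3.29 (SE 0.95, adjusted p = 0.0113). The 0.210 CPM lies within the lung floor range of 0.122 to 0.224 CPM, so the size of this change is uncertain. Klri1 thus rose while its neighbour Klri2 fell in the same lungs. The 1-day air lung 04-08 had the highest Klri1 and lowest Klri2 of its group, so that Klri2 of that library lay among the 6-month values. That library also had the highest levels in its group of Klrg1 (22.9 CPM), the NK genes Ncr1 (31.7 CPM) and Nkg7 (101 CPM), and the dividing-cell gene Mki67 (101 CPM).

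Klrg1, the cadherin receptor, was at 5.61, 22.9, 5.39 and 6.97 CPM at 1 day and at 115 and 102 CPM at 6 months (3.41, SE 0.67, adjusted p = 0.000952). Klrg2 did not pass the test (-0.36, SE 0.20, adjusted p = 0.166). Among the NKR-P1 receptors, Klrb1c was at 5.58, 5.44, 4.80 and 4.85 CPM at 1 day and at 20.3 and 21.2 CPM at 6 months (2.01, SE 0.26, adjusted p = 3.1e-05). Klrb1b, an inhibitory receptor for Clec2 proteins, went the other way, from 2.06, 1.70, 1.34 and 2.02 CPM to 0.914 and 0.549 CPM (-1.29, SE 0.27, adjusted p = 0.00135). Its reads were divided with Klrb1a, so this course depends on that split. Klrb1 rose by 3.53 (SE 0.96, adjusted p = 0.008), with 17.4 CPM in library 19-24 and 2.50 CPM in 20-25. Klrb1a, an activating receptor, did not pass (0.57, SE 0.48, adjusted p = 0.362).

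Of 12 Ly49 receptors tested, 3 rose and 1 fell. Over all genes tested, 22.5% were higher and 19.1% lower, so the share of this class that rose was near that of all genes. Ly49s5, by its name an activating form, was at 2.50, 1.77, 1.99 and 1.94 CPM at 1 day and at 23.2 and 58.1 CPM at 6 months (4.31, SE 0.70, adjusted p = 0.00022), and neither late lung came near the 1-day range. Klra5-2 rose by 1.85 (SE 0.52, adjusted p = 0.00974) and Ly49si3 by 1.37 (SE 0.53, adjusted p = 0.0475). Klra1 was at 3.91, 2.78, 2.88 and 3.94 CPM at 1 day and at 1.32 and 2.10 CPM at 6 months (-0.97, SE 0.31, adjusted p = 0.019). Ly49si1, with 11.1 to 13.4 CPM at 1 day and 17.6 and 8.92 CPM at 6 months, did not pass (0.09, SE 0.29, adjusted p = 0.826), and neither did Ly49i4 (2.08, SE 1.05, adjusted p = 0.126).

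With either late air lung left out, and the spread of the lone remaining one taken from the other groups, Klrk1, Klrd1, Klrc2, Klrc3, Klre1, Klri1, Klrg1, Klrb1c, Klrb1b and Ly49s5 passed the test in the same direction. Without library 19-24, Klrb1 (adjusted p = 0.353), Klra1 (adjusted p = 0.232), Klra5-2 (adjusted p = 0.0761) and Ly49si3 (adjusted p = 0.716) did not pass, while Klrc1 did (3.69, adjusted p = 0.0244). Without 20-25, Klri2 did not pass (adjusted p = 0.107). Ly49si3 was lost in 11 of 17 fits that left out 1 lung library, and under total-count scaling.

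**Figure D2:**
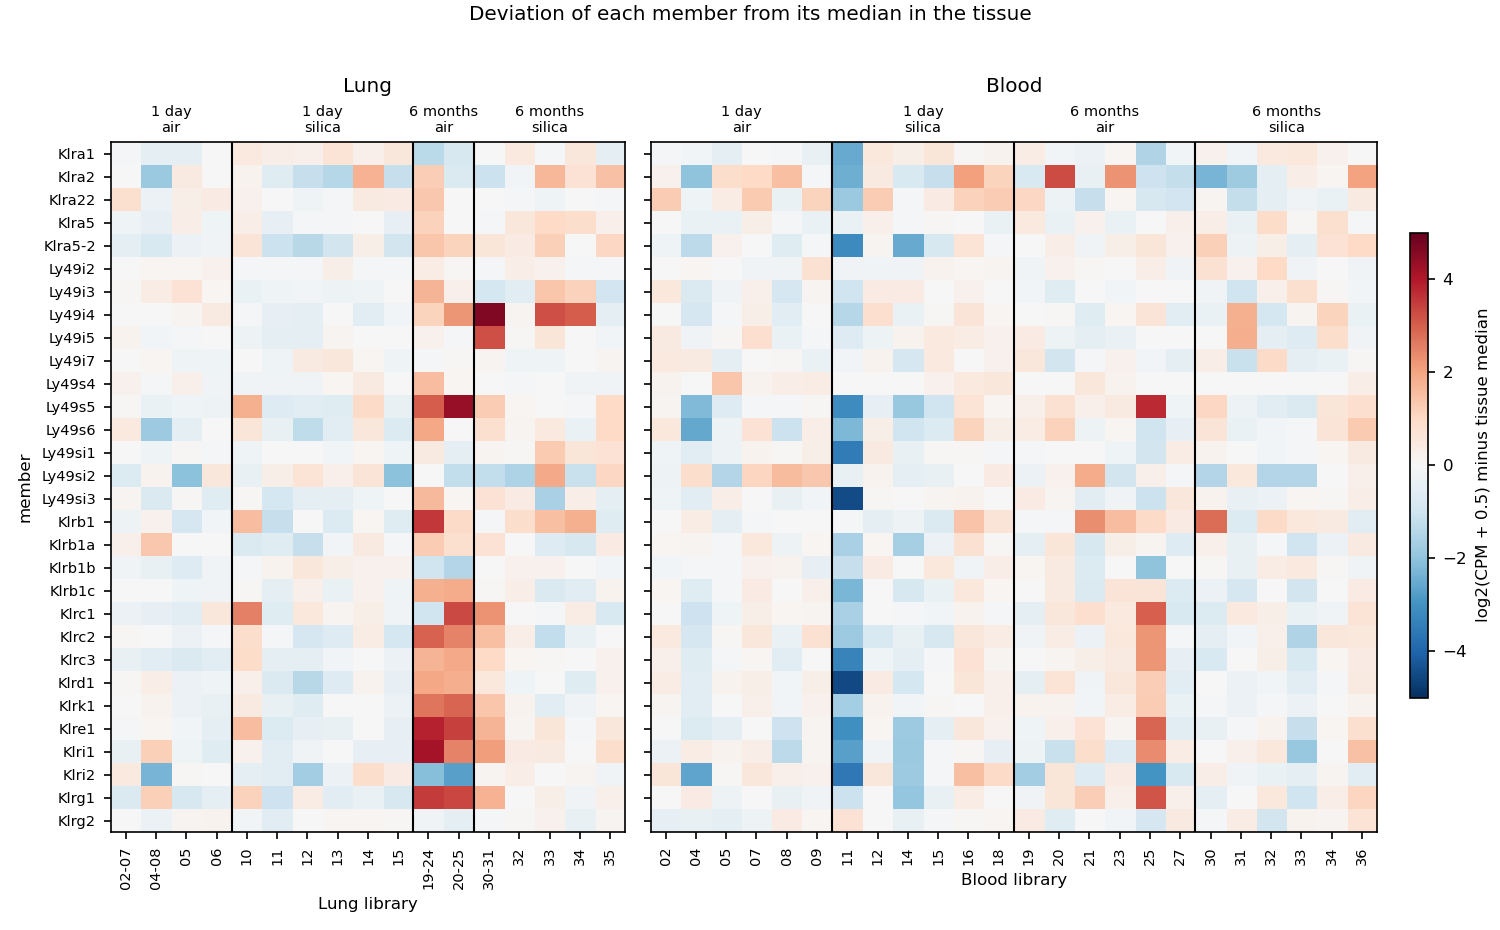
Each cell is 1 receptor in 1 library, as log2(CPM + 0.5) minus that receptor's median over the tissue's libraries (red higher, blue lower), with lung on the left and blood on the right. The air lungs at 6 months and blood library 25 are red for Klre1, Klrg1, Klri1 and Ly49s5 and blue for Klri2, and blood library 11 is blue for most receptors.

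The 2 late air lungs shared most of these receptors and differed in some. Klrc1 differed 30.4-fold between them, higher in 20-25, and Ly49s5 2.51-fold, also higher in 20-25. Klrb1 was 6.95-fold higher in 19-24, Ly49s6 4.54-fold (8.70 and 1.92 CPM), Klri1 3.23-fold and Ly49si3 3.01-fold. Klrk1, Klrd1, Klrc3, Klrg1 and Klrb1c lay within 1.16-fold of each other in the 2 libraries. These ratios have no replicate check.

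NK and dividing-cell genes moved with the receptors in these lungs. Of 29 genes of a list for NK and cytotoxic lymphocytes, 23 were higher and 1 lower at 6 months (median 2.66), among them the perforin gene Prf1 (3.22), the granule gene Nkg7 (3.15) and the granzyme gene Gzmf (4.93), while Cd226 was lower (-1.12). The list summed to 5461 and 6548 CPM in the late air lungs, 659 to 1438 in air lungs at 1 day, and 460 to 2190 in silica lungs. Of 12 cell-cycle genes, all 12 were higher (median 2.29; sums of 1010 and 1143 CPM against 138 to 541 in the other lungs), with Mki67 at 2.78. Of 14 T cell genes, 2 were higher and 10 lower: the T cell receptor chains Cd3d (-1.47), Cd3e (-1.19) and Cd3g (-1.86) fell, and Cd8a (3.61) and the zeta chain Cd247 (3.79), both of which rat NK cells also carry, rose. Of 9 B cell genes 1 was higher and 7 lower, and of 8 lung epithelial genes 0 were higher and 7 lower, with list sums of 15999 and 20483 CPM against 26943 or more in the other lungs. Of 9 neutrophil genes 2 were higher and 6 lower (median -1.14), with sums of 262 and 309 CPM against 402 to 472 in air lungs at 1 day. Of 8 monocyte and macrophage genes 0 were higher and 2 lower (median -0.32), with sums of 14188 and 15215 CPM against 20606 to 24442. Without library 19-24, 21 NK genes were higher and 1 lower, 11 cell-cycle genes higher, 2 T cell genes higher and 3 lower, 7 B cell, 4 epithelial and 3 neutrophil genes lower, and 1 monocyte and macrophage gene lower. Without 20-25, 21 NK genes were higher and 1 lower, 12 cell-cycle genes higher, 2 T cell genes higher and 9 lower, 1 B cell gene higher and 6 lower, 7 epithelial genes lower, 1 neutrophil gene higher and 3 lower, and 1 monocyte and macrophage gene lower. No listed T cell marker named here was at 0, and the part of cell makeup in the receptor levels was not tested.

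The genes that carry and feed the receptors' signals also rose. Of 19 adaptors and signalling proteins, 17 were higher and 0 lower (median 1.83). Tyrobp, the DAP12 adaptor of activating receptors, was at 94.1 to 125 CPM in air lungs at 1 day and at 411 and 335 CPM in the late air lungs (1.83). Hcst, the DAP10 adaptor of Klrk1, rose by 1.45. With either late air lung left out, 17 of the 19 were again higher. Of 18 ligand genes, by contrast, 4 were higher and 4 lower (median 0.04). The class I chains B2m (0.29), RT1-A1 (0.07) and RT1-A2 (0.04) did not pass, and the Klrk1 ligands Raet1d (3.66) and Raet1e (3.12) and the NKR-P1 ligand gene Clec2d (3.60) were higher. Of the cadherins that Klrg1 binds, N-cadherin, Cdh2, was higher (4.49, adjusted p = 2.27e-07) and E-cadherin, Cdh1, lower (-0.67, adjusted p = 0.000721). The Clec2 genes Clec2g (-0.88) and Clec2l (-1.18) and the class I gene RT1-S3 (-0.32) were lower as well. Without library 19-24, 4 ligand genes were higher and 2 lower, and without 20-25, 3 and 2.

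The next comparison asked what silica did 6 months after exposure. Of 25 members tested in lung, 3 were higher and 9 lower in silica than in air, when 9.52% of all 16265 genes tested were higher and 10.1% lower, and the median member was at -1.0. The air group is the 2 late air lungs just described, so these changes and those of the previous comparison rest on the same libraries.

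The CD94 and NKG2 group was lower in 4 of its 5 genes. Klrk1 was at 149 and 172 CPM in air and at 61.0, 25.6, 15.2, 20.1 and 24.3 CPM in silica (-2.43, SE 0.45, adjusted p = 0.0118). Klrd1 was at 77.7 and 70.3 CPM in air and at 28.5, 16.8, 19.8, 12.8 and 22.9 CPM in silica (-1.85, SE 0.26, adjusted p = 0.00682). All silica lungs lay below both air lungs, and library 30-31 was the highest of them for each gene. Klrc3 (-1.48, SE 0.27, adjusted p = 0.0116) and Klrc2 (-2.61, SE 0.68, adjusted p = 0.0341) fell as well. Klrc1 did not pass (-1.69, SE 1.12, adjusted p = 0.329), since its 2 air values enclosed all 5 silica values, which ran from 1.15 to 12.9 CPM.

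Klre1 was at 106 and 78.3 CPM in air and at 23.9, 7.64, 10.8, 6.41 and 10.5 CPM in silica (-2.93, SE 0.43, adjusted p = 0.00751). Klri1 was at 167 and 51.8 CPM in air and at 39.4, 12.1, 12.3, 8.90 and 16.9 CPM in silica (-2.59, SE 0.59, adjusted p = 0.022). Klri2 was at 0.568 and 0.210 CPM in air and at 4.63, 5.37, 4.27, 4.6 and 3.61 CPM in silica (3.58, SE 0.44, adjusted p = 0.0053). Its air value of 0.210 CPM lies within the floor range, so the size of its change is uncertain. No silica lung overlapped an air lung for any of the 3, and the opposite course of Klri1 and Klri2 appeared again with the same air libraries. Klrg1 was lower too (-2.84, SE 0.47, adjusted p = 0.00922), with silica values of 33, 9.66, 12.0, 8.42 and 11.7 CPM.

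Among NKR-P1 receptors, Klrb1c was lower (5.86, 7.10, 3.20, 3.67 and 6.34 CPM in silica; -1.96, SE 0.30, adjusted p = 0.00783). Klrb1b, whose reads were divided with Klrb1a, was higher (1.81, SE 0.30, adjusted p = 0.00908), at 2.36, 2.77, 2.84, 2.41 and 2.08 CPM. Klrb1a (-1.0, SE 0.40, adjusted p = 0.122) and Klrb1 (-1.94, SE 0.86, adjusted p = 0.156) did not pass. Of 11 Ly49 receptors, Ly49s5 was lower (6.46, 2.6, 2.37, 2.25 and 5.26 CPM in silica; -3.41, SE 0.48, adjusted p = 0.00686) and Klra1 higher (4.06, 5.90, 3.92, 6.26 and 2.73 CPM; 1.44, SE 0.40, adjusted p = 0.041). With 9.52% of all genes tested higher and 10.1% lower, this class was near the share of all genes. Ly49si1 (0.64, adjusted p = 0.307), Ly49si3 (-0.97, adjusted p = 0.321) and Klrg2 (0.38, adjusted p = 0.251) did not pass.

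**Figure D3:**
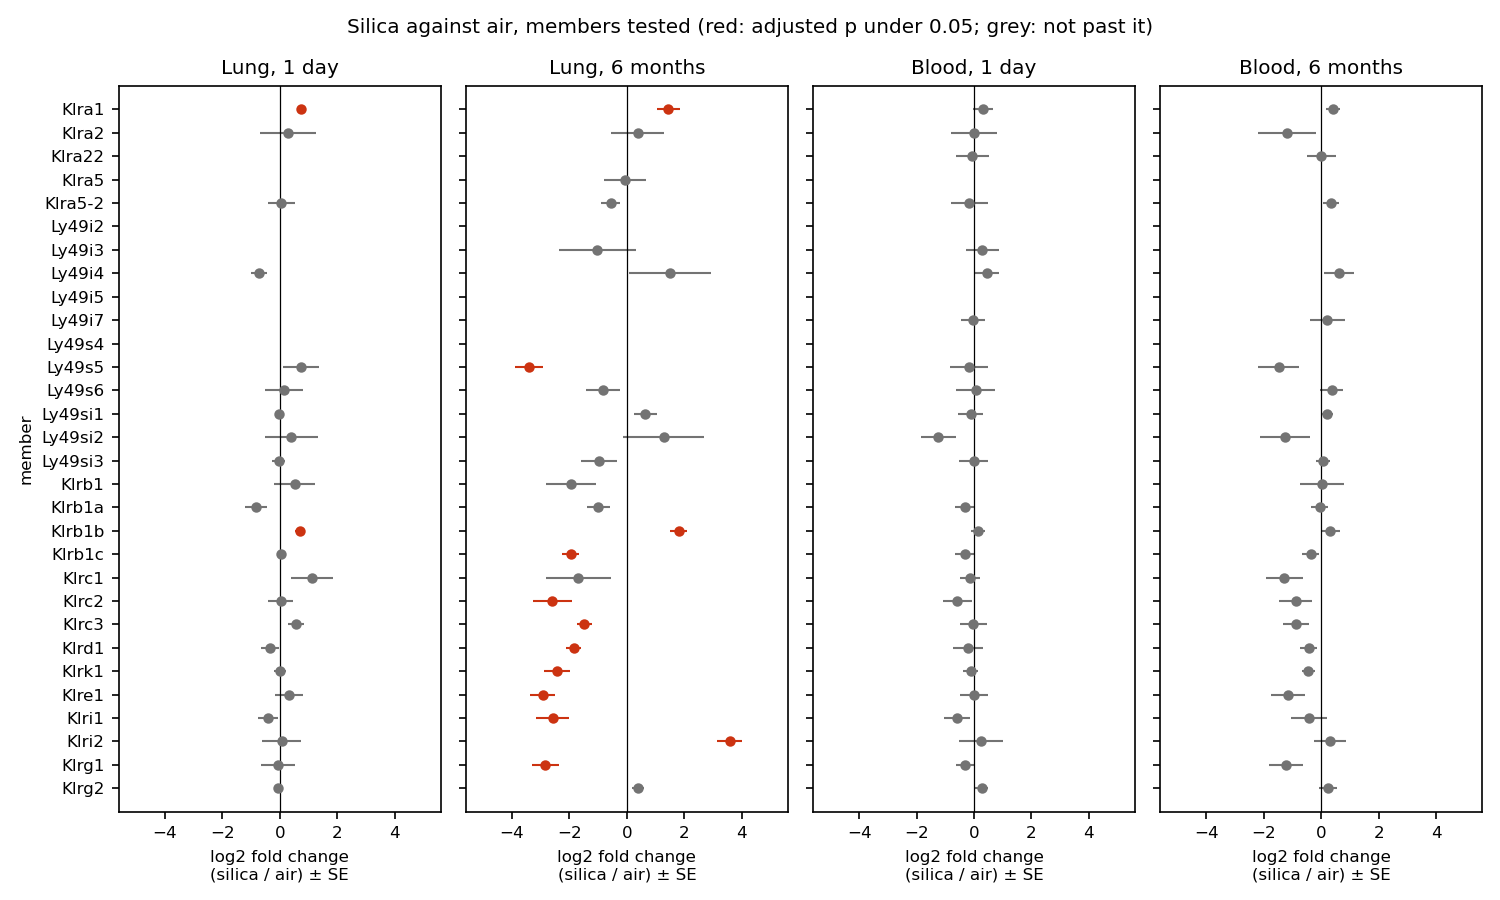
Log2 fold change of each tested receptor in silica against air (points, with bars of ± 1 SE) in lung and blood at 1 day and 6 months; red points passed an adjusted p of 0.05. In lung 2 receptors passed at 1 day and 12 at 6 months, and in blood none passed at either time (0 of 25 each).

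With either late air lung left out, 1 air lung remained, and such a fit can lose calls over all genes. Genes passing in these fits are therefore not counted here, and only effect sizes are given. Without library 19-24, Klri2 was at 4.58 and Ly49s5 at -3.91, and the median member moved to 0.03. Klrc1 had opposite signs, -2.63 without 19-24 and 2.30 without 20-25. The lung NK list behaved as the receptors did, with 1 gene higher and 22 lower of 29 (median -2.22), and adaptors and signalling genes with 0 higher and 16 lower of 19 (median -1.27). T cell genes were higher in 8 and lower in 2 of 14, B cell genes higher in 4 of 7, neutrophil genes in 7 of 9 (median 2.50), monocyte and macrophage genes in 5 of 8, and epithelial genes in 4 of 8, while all 12 cell-cycle genes were lower (median -1.64). Without library 19-24 the medians were -2.15 for NK, -1.12 for adaptor and -1.48 for cell-cycle genes. The part of these cell types in the receptor differences was not tested.

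Silica lung 30-31 held the highest receptor sum of its group, 362 CPM against 162 to 206 in the others. In it Klrk1 was at 61.0 CPM, Klre1 at 23.9, Klri1 at 39.4, Klrg1 at 33 and Klrc1 at 12.9 CPM, each the highest of the group, and its NK list summed to 2190 CPM, the highest of the silica lungs. Without it, 12 members passed for silica at 6 months, 3 higher and 9 lower, with Klrk1 at -2.86 (adjusted p = 0.00059) and Klre1 at -3.33 (adjusted p = 0.000578), and 25 NK genes were lower and 1 higher. Ly49i4 was at 29.2 CPM and Ly49i5 at 5.83 CPM in this library, and Ly49i5 was at or below 2.25 CPM in every other library of either tissue.

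The silica effect itself was compared between the times in 1 fit of all 4 lung groups. It differed for 11 of 26 members, 2 with a higher and 9 with a lower effect at 6 months, when 12.2% of all genes tested had a higher and 14.6% a lower effect. The difference was -2.47 (SE 0.49, adjusted p = 0.00257) for Klrk1, -3.28 (SE 0.70, adjusted p = 0.00391) for Klre1, -4.16 (SE 0.87, adjusted p = 0.00328) for Ly49s5, -2.04 (SE 0.33, adjusted p = 0.000628) for Klrb1c and 3.49 (SE 1.06, adjusted p = 0.0241) for Klri2. Klrc3 (-2.08), Klrd1 (-1.52), Klrg1 (-2.80), Klri1 (-2.20) and Klrc2 (-2.65) had a lower effect and Klrb1b a higher one (1.08). Klrb1a (-0.21, adjusted p = 0.83), Klrb1 (-2.48, adjusted p = 0.141), Klrc1 (-2.83, adjusted p = 0.148), Ly49si1 (0.64), Ly49si3 (-0.96) and Klrg2 (0.42) did not pass. Without library 19-24, 6 members passed, Klrk1, Klrc3, Klre1, Klrb1c, Klrb1b and Ly49s5. Without 20-25, 10 passed, and Klrb1b and Klri2 were not among them; without silica lung 30-31, 12 passed. Klri1 passed in 7 of 17 fits that left out 1 library.

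At 1 day, silica raised 2 of 23 members in lung and lowered none, when 7.61% of all 15724 genes tested were higher and 4.07% lower, so the members' share was near that of all genes. Klra1 was at 3.91, 2.78, 2.88 and 3.94 CPM in air and at 4.96, 5.57 and 6.77 CPM (lowest, median and highest) in the 6 silica lungs. The groups did not overlap, and the change was 0.75 (SE 0.15, adjusted p = 0.00513). Klrb1b was at 2.06, 1.70, 1.34 and 2.02 CPM in air and at 2.21, 2.85 and 3.79 CPM in silica, also without overlap (0.70, SE 0.19, adjusted p = 0.0276). Here too its level depends on the split of reads with Klrb1a. Klra1 passed in all 10 fits that left out 1 library, and Klrb1b in 5 of 10, with its fold change between 0.58 and 0.77. Both genes were also the members that were higher in blood than in lung by the most among those named below. The erythroid list summed to 2833 to 5344 CPM in the silica lungs at 1 day and to 4229 to 6646 CPM in the air lungs. The part of blood held in the lung samples in the change of Klra1 and Klrb1b was not tested.

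The NK receptors with the highest counts did not pass at 1 day. Klrk1 changed by 0.01 (SE 0.20, adjusted p = 0.986), Klrd1 by -0.35 (SE 0.31, adjusted p = 0.56), Klrb1a by -0.81 (SE 0.38, adjusted p = 0.237), Klri1 by -0.41 (SE 0.36), Klre1 by 0.33 (SE 0.49), Klrg1 by -0.06 (SE 0.60), Klrb1c by 0.05 (SE 0.16), Ly49si1 by -0.03 (SE 0.09), Ly49si3 by -0.04 (SE 0.24) and Klrg2 by -0.07 (SE 0.13). The NK list had 1 gene higher and 1 lower of 27, and the adaptors 3 higher of 19, Vav1, Plcg1 and Inpp5d. Of 16 ligand genes, 1 was higher, the Klrk1 ligand Raet1d (1.45), and 2 lower. Neutrophil genes were higher in 6 of 9 (median 0.78) and monocyte and macrophage genes in 4 of 7, and T cell and B cell genes in none.

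Within silica-exposed lungs, 2 of 26 members were higher at 6 months than at 1 day and none lower, when 4.44% of all genes tested were higher and 5.21% lower. Ly49i4, by its name an inhibitory form, was at 0.323, 0.495 and 0.672 CPM (lowest, median and highest) in the 6 lungs at 1 day and at 29.2, 0.826, 10.7, 9.15 and 0.380 CPM at 6 months. The late silica lungs fell into values near those at 1 day in 2 lungs, 32 and 35, and far above them in 30-31, 33 and 34 (4.30, SE 0.82, adjusted p = 0.00668). Ly49si1 was at 11, 12.1 and 13.7 CPM at 1 day and at 14.1, 13.4, 32.2, 19.5 and 21.6 CPM at 6 months (0.73, SE 0.20, adjusted p = 0.0337), and passed in 9 of 17 fits that left out 1 library. Klrk1 (0.46, adjusted p = 0.296), Klrd1 (0.39, adjusted p = 0.314), Klre1 (0.57, adjusted p = 0.361), Klri1 (1.21, adjusted p = 0.0848), Klrg1 (0.61), Klrb1a (0.36), Klrb1c (-0.03), Ly49s5 (0.15), Ly49si3 (0.41) and Klrg2 (0.07) did not pass. Without silica lung 10 of the 1-day group, which had the highest Klre1 (21.2 CPM), Klrc1 (15.5 CPM) and Ly49s5 (9.48 CPM) of that group, 4 members passed. Without 30-31, 3 passed, Ly49i4 (3.39, adjusted p = 0.00661), Ly49si1 (0.85, adjusted p = 0.0117) and Klra5 (2.23, adjusted p = 0.0437).

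In blood, silica changed no member past the threshold. At 1 day 0 of 25 members passed, as did 0.0% of all 11876 genes tested by edgeR's quasi-likelihood test (430 at an unadjusted p under 0.05), and every member's adjusted p was near 1. Klrk1 was at 41.1, 62.3 and 70.5 CPM (lowest, median and highest) in air and at 17.9, 60.6 and 70.3 CPM in silica (-0.11, SE 0.26). Klrd1 (-0.20), Klrb1a (-0.30), Klra1 (0.32), Ly49si1 (-0.12), Klrb1c (-0.31), Klre1 (-0.01), Klrg1 (-0.30), Klri2 (0.25) and Klrg2 (0.27) likewise did not pass. The lowest values came from library 11, where the receptor sum was 49.2 CPM and 22 members had their lowest or tied lowest level of all 24 blood libraries, with Klrd1 at 0.685 CPM and Ly49si3 at 0. Its erythroid list summed to 248248 CPM, against 64957 to 225689 in the other silica blood libraries at 1 day. In silica library 12, which held the 225689 CPM, the receptor sum was 288 CPM. In silica libraries 31 and 33 of 6 months, with erythroid sums of 325580 and 317488 CPM, it was 212 and 197 CPM. The part of blood makeup in the receptor levels of library 11 was not tested. In that library Gzmb, at 0.205 CPM, was the lowest of the group, while Nkg7 (86.9 CPM) and Cd3d (31.2 CPM) were each the highest. Its NK list summed to 989 CPM, within the 733 to 1496 CPM of the other silica blood libraries at 1 day. Without library 11 still 0 members passed, the smallest adjusted p being 0.226 for Klra1 (0.55).

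At 6 months 0 of 25 members passed in blood, with 0.0% of all 11615 genes tested past the threshold (720 at an unadjusted p under 0.05) and adjusted p-values of 0.658 or more for the members. Ly49s5 changed by -1.48 (SE 0.72), Klrg1 by -1.23 (SE 0.58), Klre1 by -1.15 (SE 0.59), Klrk1 by -0.45 (SE 0.23), Klrd1 by -0.43 (SE 0.30), Klrc1 by -1.28, Klra1 by 0.42 (SE 0.24), Ly49si1 by 0.22, Klrb1a by -0.06, Klrb1c by -0.37, Klri1 by -0.43 and Klrg2 by 0.24. Without air library 25, Ly49s5 changed by -0.01, Klrg1 by -0.30 and Klre1 by -0.12, and 0 members passed. The erythroid list summed to 325580 and 317488 CPM in silica libraries 31 and 33, whose TMM factors were 0.467 and 0.615. It summed to 98592 to 160546 CPM in the other silica libraries and to 55374 to 158159 in air. By DESeq2 0 members passed in either blood comparison.

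Between the times, 0 of 26 members passed in air-exposed blood, when 0.824% of all 12264 genes tested did (1167 at an unadjusted p under 0.05, 5 members among them); the smallest adjusted p was 0.238, for Klrg1 (1.53, SE 0.50). Klrk1 (0.34), Klrd1 (0.26), Klrb1a (-0.16), Klra1 (0.01), Ly49si1 (-0.04), Klrb1c (0.11), Klre1 (1.49), Klri1 (0.83) and Klrg2 (0.08) had adjusted p-values above that. Of 9 B cell genes 6 passed, and of the 28 NK list genes 0. Without library 25, 0 members passed, with Klrg1 at 0.58 (adjusted p = 0.618) and Klre1 at 0.44 (adjusted p = 0.83), and 6 B cell and 0 NK genes.

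Blood library 25 carried the highest level of all 24 blood libraries in 9 members. In it Ly49s5 was at 58.2 CPM, against 8.53 or less in the other blood libraries, Klrg1 at 70.4 against 18.2 or less, and Klre1 at 68.2 against 15.1 or less. Klri1 was at 39.1 CPM (21.1 or less elsewhere), Klrc1 at 21.7 (4.48 or less), Klrc3 at 27.6 (9.45 or less), Klrc2 at 9.18 (3.03 or less), Klrd1 at 62.9 (41.9 or less) and Klrk1 at 143 (75.8 or less). Klri2, at 0.251 CPM, and Klrb1b, at 2.22 CPM, were low there, and the Klri2 value lies within the blood floor range of 0.171 to 0.282 CPM. The same library had Ncr1 at 65.4 CPM, Prf1 at 599 CPM and Cd8a at 325 CPM, and the lowest Cd3d (5.77 CPM) and Cd3e (14.1 CPM) of its group; its NK list summed to 3741 CPM, against 733 to 1615 in the other blood libraries.

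**Figure D4:**
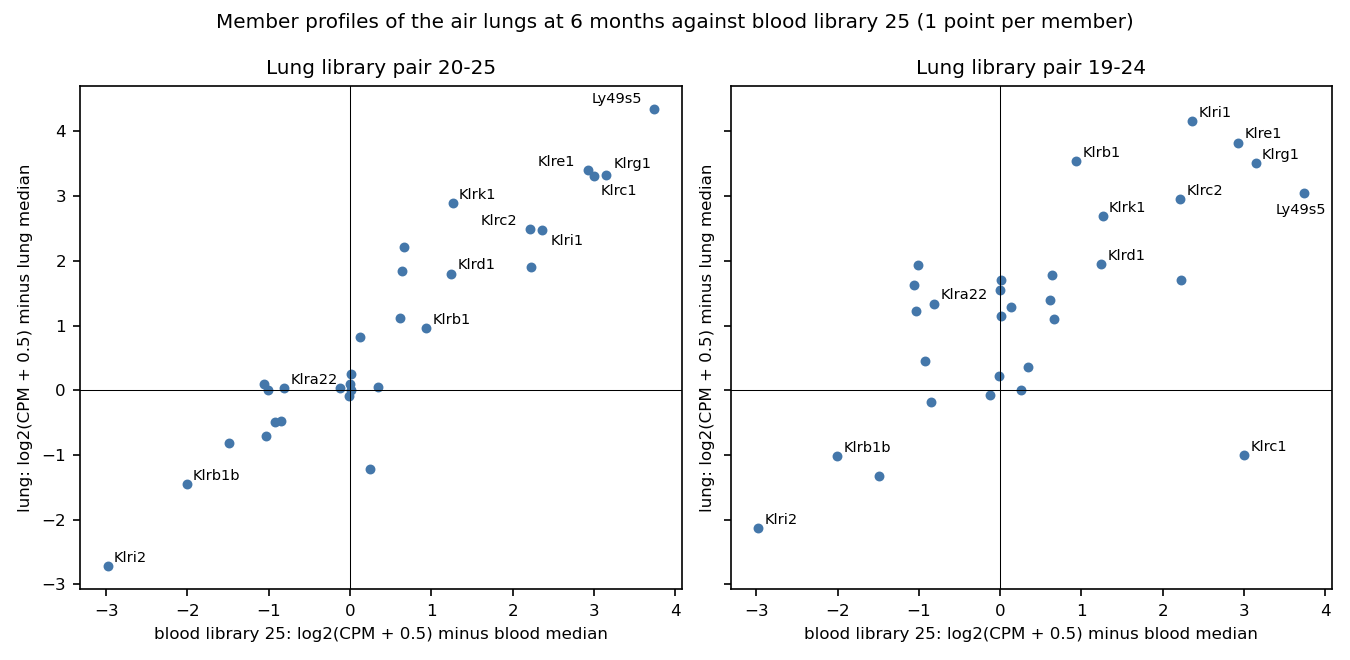
Each point is 1 receptor: its deviation from the lung median, as log2(CPM + 0.5), in an air lung at 6 months (20-25 left, 19-24 right) against its deviation from the blood median in blood library 25. In lung 20-25 the points lie along a diagonal from Klri2 to Ly49s5 (r = 0.94), and in lung 19-24 Klrc1 falls far below it (r = 0.67).

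This receptor profile was close to that of lung 20-25. Across the 30 members, the deviations of blood 25 and lung 20-25 from their tissue medians had a Pearson r of 0.94, the highest of the 24 blood libraries for that lung, while blood 20 gave -0.01. Lung 19-24 was also most like blood 25 (r = 0.67), with blood 19 at 0.14, and the 2 late air lungs had an r of 0.70 with each other. The points are genes of 1 family that share reads and 1 library each, so r describes these libraries only, and the comparison was chosen after the values were seen. Of 13 lung libraries with a blood library of the same number, 6 were most like such a one of the 24, 2 ranked it second, and 5 lower. Among the 6, the averaged pairs 02-07, 04-08, 20-25 and 30-31 had 2 same-numbered blood libraries each and were counted by the better one. The other one ranked 6, 18, 10 and 7 for these pairs. The remaining lungs of the 6, 05 and 15, had 1 such library each. The labels do not say that a shared number is a shared animal. For the pairs 04-08 and 30-31 the profiles were most alike with blood 04 (0.77, against -0.27 for blood 08) and blood 31 (0.71, against 0.01 for blood 30).

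The last comparison set blood against lung in air-exposed rats at 1 day, in 1 fit of both tissues' counts, which come from separate tables. Of 25 members 22 were higher in blood and none lower, when 33.6% of all 15446 genes tested were higher and 47.6% lower. The largest of the named differences were those of Klra1 (4.21, SE 0.15, adjusted p = 1.74e-12) and Klrb1b (4.17, SE 0.17, adjusted p = 1.16e-11), then Klrk1 (3.17, SE 0.17) and Klra2 (3.07, SE 0.87). Klrb1c (2.86), Ly49si3 (2.56), Klri2 (2.32), Klrd1 (2.21), Ly49si1 (2.08), Klre1 (1.79), Klrb1a (1.74), Klrc1 (1.69), Klrg1 (1.21), Klri1 (1.17), Klrb1 (1.02) and Klrc3 (0.95) were smaller. Klrg2 (-0.06, adjusted p = 0.789), Ly49si2 (2.18, adjusted p = 0.0664) and Ly49i3 (1.01, adjusted p = 0.0986) did not pass.

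The size of these differences depended on how the tissues were scaled to each other. With total counts only, a scaling added after the data were seen, 8 members were higher and 2 lower, the median member was at 0.69 in place of 2.15, and the median of all genes at -1.71 in place of -0.24. Klrg1 (-0.28), Klri1 (-0.29), Klrb1 (-0.45) and Klrc3 (-0.52) were then lower in blood, and Klrc3 and Klrg2 (-1.56) passed as lower. The counts of members in the silica comparisons of either tissue were the same under this scaling, 2, 12, 0 and 0.

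Members at or near the floor carried little information. Ly49i2, Ly49i5 and Ly49s4 were too low to be tested in any of the 9 comparisons with all libraries. Klra5 was at 0.973 CPM or less and Ly49i7 at 1.60 CPM or less in every library. Klra2 was at 0.158 to 7.33 CPM in lung, and at 30.6 CPM in blood library 20 against 12.9 CPM or less in the other blood libraries. Because Klra2 shares reads with its copies, its level is uncertain.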

How the data were processed

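The authors deposited estimated counts per gene, 1 column per library in 4 tables, for 46 libraries; per the submitters' processing notes, Salmon 1.10.1, STAR 2.6.1d, Trim Galore 0.6.7, cutadapt 3.4 and bcl2fastq 2.19 were used with the build Rnor_6.0. An annotation release was not given in the sources used here. Salmon divides reads that fit several copies, so counts in this family can be fractional; they were rounded for the tests. Libraries were made with a stranded kit per the labels' protocols.

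Near-identical lung libraries were averaged where under 10% of genes with whole counts (mean of 20 or more, tolerance 1e-06) differed at p under 0.05 in a chi-square test. Tests used edgeR 4.0.16 (R 4.3.3) with TMM factors, filterByExpr (minimum count 10, total 15) and robust quasi-likelihood F tests, adjusted by the Benjamini-Hochberg method over all genes tested; an adjusted p under 0.05 passed. Silica comparisons were fitted within their 2 groups, comparisons across time and of the silica effect with all 4 groups of the tissue. Fold changes are log2. CPM are scaled by TMM factors over a tissue (0.942 to 1.03 in lung, 0.467 to 1.73 in blood). The code was tested on simulated data. Alternatives were RLE factors, DESeq2 1.42.0, no filter, every library separate, unrounded counts, all groups in 1 fit, a replicate block and leaving out each library; gene-list counts without the libraries that stood apart were added after the data were seen.

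Members and lists were chosen with earlier results of these data known. Every member past the threshold is named if there are 12 or fewer, otherwise the 4 per class of highest mean CPM, and of the rest the 2 per class of highest mean CPM. Other members and libraries named were chosen after their values were seen. Erythroid, platelet and endothelial lists had, in air lungs at 6 months against 1 day, 0 of 7, 3 of 3 and 2 of 5 genes past the threshold.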

Additional observations from a re-analysis of the deposited data

Results flagged for a closer look

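The summed CPM of a receptor class was checked for a library far from the others of its group in 42 cases, and 11 stood out. For a single group chance gives about 1 in 20, but the cases overlap and cannot be set against that rate. The sum of all members holds the class sums, and lung 30-31 and blood 25 stood out in 4 sums each. Silica lung 30-31 at 6 months stood out for all members (362 CPM, the other libraries of its group at 162 to 206), the CD94 and NKG2 group (133, others 49.9 to 64.3), Klre1 with Klri1 and Klri2 (67.9, others 19.9 to 31) and Klrg1 with Klrg2 (41.4, others 14.9 to 22.1). Blood library 25 of the air group at 6 months stood out in the same 4 sums, at 585, 264, 108 and 71.8 CPM; its TMM factor was 1.73, and by total counts alone these sums were 1011, 457, 186 and 124 CPM. In air lung 04-08 at 1 day Klrg1 with Klrg2 summed to 29.9 CPM (others 14.3 to 16.7). For NKR-P1 receptors, silica lung 14 at 1 day stood at 33.9 CPM (others 18.0 to 24) and blood library 07 of the air group at 1 day at 61.6 CPM (others 43.3 to 47.6).

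The effect of silica in lung differed between 6 months and 1 day, by the edgeR test of the difference itself, for 11 members. The log2 differences were 1.08 for Klrb1b, 3.49 for Klri2, -2.04 for Klrb1c, -2.65 for Klrc2, -2.08 for Klrc3, -1.52 for Klrd1, -3.28 for Klre1, -2.80 for Klrg1, -2.20 for Klri1, -2.47 for Klrk1 and -4.16 for Ly49s5. All 11 include the 2 late air lungs, and 6 members passed without library 19-24 and 10 without 20-25.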

How the results depend on the processing

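RLE factors, no filter and unrounded counts left the number of receptors past the threshold within 1.5 times in all 9 comparisons. Leaving out 1 library gave 1 to 2 receptors for silica in lung at 1 day (2 with all libraries; 1 without air 04-08, 05 or 06 or silica 12 or 13), 2 to 12 at 6 months, 12 to 17 across time in air lungs, 1 to 4 across time in silica lungs, 6 to 12 for the change of the silica effect, 21 to 23 for blood against lung, and 0 in each of the 3 blood comparisons. With all 4 lung groups in 1 fit, 1 receptor passed for silica at 1 day. Across time in silica lungs, 4 passed by DESeq2 and 4 with every library separate, against 2. Among values of single receptors, 2473 kept direction and side, 88 fell short of the threshold, 18 newly passed and 4 reversed.

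Total counts only, added after the data were seen, left 10 of 25 receptors past the threshold in blood against lung (22 with TMM) and reversed Klrg1 (-0.28), Klri1 (-0.29), Klrc3 (-0.52) and Klrb1 (-0.45). It moved the split of all genes from 5194 higher and 7349 lower to 1908 and 12389 there, and from 1196 and 640 to 1035 and 924 for silica in lung at 1 day. The median of all genes moved to -0.30 for silica in blood at 6 months and to -0.15 across time in air blood.

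With the title number as a replicate block, 22 of 24 receptors passed in blood against lung. Receptor profiles of same-numbered lung and blood libraries gave an r from -0.27 to 0.77 at 1 day in air; the -0.27 is blood 08 against the averaged lungs 04-08, which gave 0.77 with blood 04. The single silica lungs 12 and 14 gave -0.07 and -0.17 with their own numbers, and 6 of 13 lungs were most like theirs. The labels tie no number to an animal, so the numbers were not taken to pair the samples. The rule for members gave 29 genes at 10 counts in 3 libraries and 28 at 5 counts in 6. Depth limits Ly49i2, Ly49i5 and Ly49s4, which were tested in no comparison with all libraries.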
